A study of Mus musculus with 8 samples.

Results

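Macroautophagy encloses cytoplasm and cargo in a double membrane, the autophagosome, and delivers it to the lysosome for breakdown. A kinase complex around ULK1 starts the process, a lipid kinase complex around VPS34 and Beclin 1 marks the membrane, WIPI, ATG2 and ATG9 proteins extend it, and a pair of ubiquitin-like conjugation systems attach ATG8-family proteins (LC3 and GABARAP) to it. Cargo receptors bind ATG8 proteins on one side and the cargo, often ubiquitin-tagged, on the other. In leukaemia cells the pathway is best known for recycling nutrients under stress.

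The transcripts described here are those of 38 genes of this machinery, chosen by name and located among the 21859 gene IDs of the count table through their Ensembl IDs in GENCODE M21. They fall into 5 initiation genes, 6 nucleation genes, 7 genes of membrane supply, 11 conjugation genes, 4 Atg8-family genes and 5 cargo receptors. Map1lc3b, which encodes LC3B, is not among them: its whole span lies inside that of Gm20388, it is listed at 0 counts in all 8 samples, and its level was therefore not measured.

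PER-M60 is a leukaemia cell line of the mouse, and RNA of 8 of its cultures was sequenced. Of these, 4 were kept in control media and 4 in osteoclast-conditioned media, that is, media previously exposed to osteoclasts, the cells that resorb bone. No genetic change or drug is named for either group, and the labels do not give the composition of the media or how the replicates were separated, so p-values measure the spread between these samples. The question for each gene was whether its transcript level differed between the media.

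Total counts per sample ran from 15391754 to 21637966, and 3 counts corresponded to 0.138 to 0.194 CPM (counts relative to library size, scaled by TMM, a correction for library composition). Markers of pre-B cells summed to 3826 to 3846 CPM in control medium and 4025 to 4055 CPM in osteoclast-conditioned medium. In that list 4 of 7 tested genes rose, and Rag1, which lies inside another gene, was at 0. Of the osteoclast markers, Ocstamp and Dcstamp were at 0 in every sample, and the 9 markers summed to 35.5 to 37 CPM in control and 34.3 to 37.5 CPM in osteoclast-conditioned medium. Most of that sum came from Acp5 (22.9 and 24.4 CPM) and Itgb3, which fell from 12.9 ± 1.41 to 10.7 ± 0.376 CPM without overlap (SD, n = 4; edgeR adjusted p = 0.0185). The 6 macrophage markers summed to 20.6 to 22 CPM and 21.4 to 25.1 CPM, with Cd14 at 0 and Mrc1 (14.3 and 14.7 CPM) as most of the sum. Of them Lyz2 rose without overlap, from 4.46 ± 0.406 to 5.91 ± 0.865 CPM (SD, n = 4; edgeR adjusted p = 0.0119). The part of these marker changes in the results below was not tested. The 5 stromal markers summed to 10.6 to 12.6 CPM and 9.16 to 11.4 CPM, with Col1a2 and Cxcl12 at 0. Nearly all of that sum was Runx2 (11.3 and 10.8 CPM). In these bulk samples fewer cells of a type and less RNA per cell cannot be told apart.

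Across the 6 steps, most autophagy genes that differed were higher in osteoclast-conditioned medium, by small amounts. Of the 37 members that passed the filter on low counts, 13 rose and 3 fell at an adjusted p under 0.05 (edgeR quasi-likelihood test, Benjamini-Hochberg over all genes tested). That is 43.2% of those tested, against 30.5% of the 10729 genes tested overall. The 13 rises are 35.1% of the members, where 15.7% of all tested genes rose, and the 3 falls are 8.11%, where 14.8% of all tested genes fell. The median log2 fold change (osteoclast-conditioned over control) was 0.08 over the members and -0.01 over all tested genes. Member values ran from -0.58 for Wipi1 to 0.37 for Atg14, and 4 members differed by 1.2-fold or more. The values of the 2 media did not overlap in 13 members, or 35.1%, and in 28.2% of all tested genes. Rises outnumbered falls in initiation, nucleation and the cargo receptors. In membrane supply and in conjugation, rises and falls were equal in number, and no Atg8-family gene passed the test. Wdr45 was the member left out by the filter, with 3 to 7 counts per sample. The steps hold 4 to 6 tested genes each, and 11 for conjugation, so their counts are small and are given beside the shares of 15.7% higher and 14.8% lower over all tested genes.

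**Figure D1:**
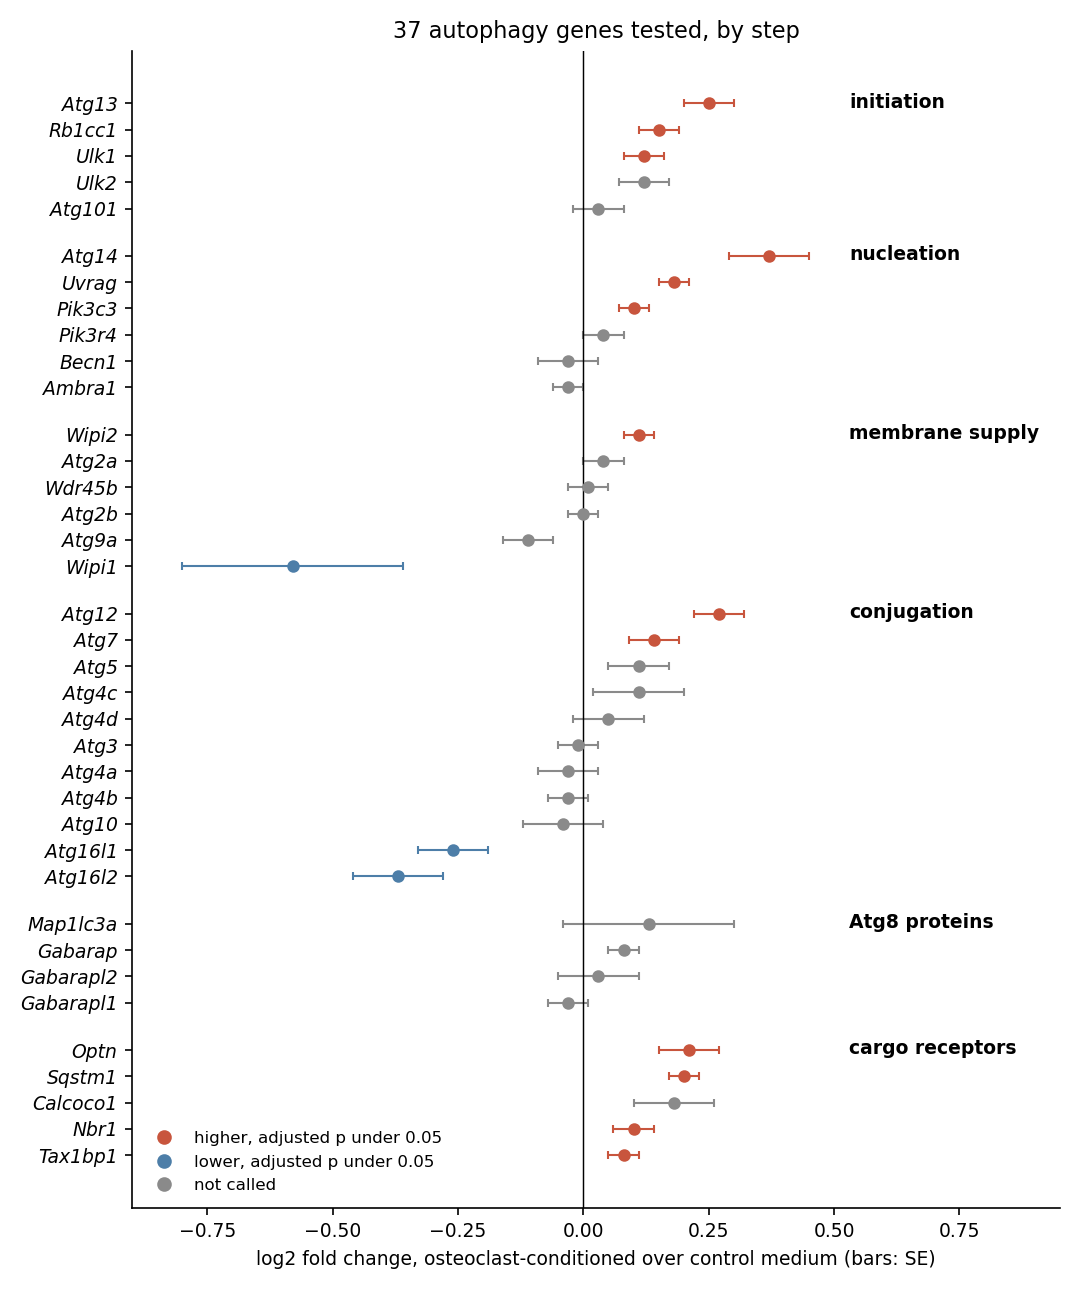
Log2 fold change of each of the 37 tested autophagy genes (x axis; points with SE bars) in osteoclast-conditioned over control medium, grouped by step, with n = 4 cultures per medium. Red points (13) were higher and blue points (3) lower at an adjusted p under 0.05 in edgeR, and the largest fold changes, 0.37 for Atg14 and -0.58 for Wipi1, belong to genes of nucleation and membrane supply.

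In the initiation complex 3 of 5 genes rose (60.0%, against 15.7% of all tested genes) and none fell. All 5 had a positive log2 fold change, with a median of 0.12. Atg13 (ENSMUSG00000027244; chromosome 2, 91674618 to 91710576, GRCm38) encodes the adaptor that ties the ULK kinases to their scaffold. Its normalised CPM were 38.6, 36.6, 35.3 and 34.6 in control replicates 1 to 4 and 43.6, 42.0, 45.1 and 41.2 in osteoclast-conditioned replicates 1 to 4. Every osteoclast-conditioned culture was above every control culture, and the rise was 1.19-fold (log2 fold change 0.25, SE 0.05, edgeR adjusted p = 0.00016).

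Rb1cc1 (ENSMUSG00000025907; chromosome 1, 6206197 to 6276648) encodes FIP200, the scaffold of the complex. It was at 81.8, 87.2, 79.3 and 82.6 CPM in control medium and 93.1, 90.3, 90.0 and 95.0 CPM in osteoclast-conditioned medium. The groups did not overlap, and the rise was 1.11-fold (log2 fold change 0.15, SE 0.04, edgeR adjusted p = 0.00133). Pseudogene and other transcripts carry 12% of the 50-base stretches of its longest transcript, so reads from these could be split. Ulk1, the kinase itself, rose 1.09-fold, from 81.7 ± 2.76 to 88.8 ± 3.23 CPM (SD, n = 4; edgeR adjusted p = 0.0105), with overlapping groups. Its relative Ulk2 had the same log2 fold change of 0.12 but an edgeR adjusted p of 0.0666, and Atg101, which stabilises Atg13, was at 32.0 ± 1.58 and 32.7 ± 1.6 CPM.

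Among the nucleation genes, the subunits that tell the 2 VPS34 complexes apart changed most. ATG14 directs the lipid kinase to the forming autophagosome, and UVRAG replaces it in the complex that acts on endosomes. Atg14 (ENSMUSG00000037526; chromosome 14, 47540893 to 47570649, minus strand) was at 8.53, 8.90, 8.87 and 8.52 CPM in control medium and 11.3, 11.6, 11.1 and 11.1 CPM in osteoclast-conditioned medium. The spread within each medium was small beside the gap between them. The rise of 1.29-fold was the largest among the 37 members tested (log2 fold change 0.37, SE 0.08, edgeR adjusted p = 0.000433), and it rested on 137 to 223 counts per sample.

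Uvrag (ENSMUSG00000035354; chromosome 7, 98885021 to 99141141) was at 111, 122, 112 and 116 CPM in control medium and 131, 132, 132 and 129 CPM in osteoclast-conditioned medium. It rose 1.14-fold with no overlap (log2 fold change 0.18, SE 0.03, edgeR adjusted p = 5.5e-05). Pik3c3, which encodes VPS34, rose 1.07-fold from 75.2 ± 2.23 to 80.9 ± 0.339 CPM (SD, n = 4; edgeR adjusted p = 0.0223), a call that did not hold with DESeq2, with scaling by total counts or without control replicate 4 (adjusted p from 0.0112 to 0.0669 over 14 alternative fits). The other 3 genes did not pass the test. Log2 fold changes were 0.04 for Pik3r4, the VPS15 subunit, and -0.03 for both Becn1 (Beclin 1) and Ambra1, a Beclin 1 regulator. For Becn1, 85.3% of exon bases lie inside the span of Cntd1 on the opposite strand, and its counts are uncertain for that reason. In all, 3 of the 6 nucleation genes rose (50%, against 15.7% of all tested genes), and their median was 0.07.

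**Figure D2:**
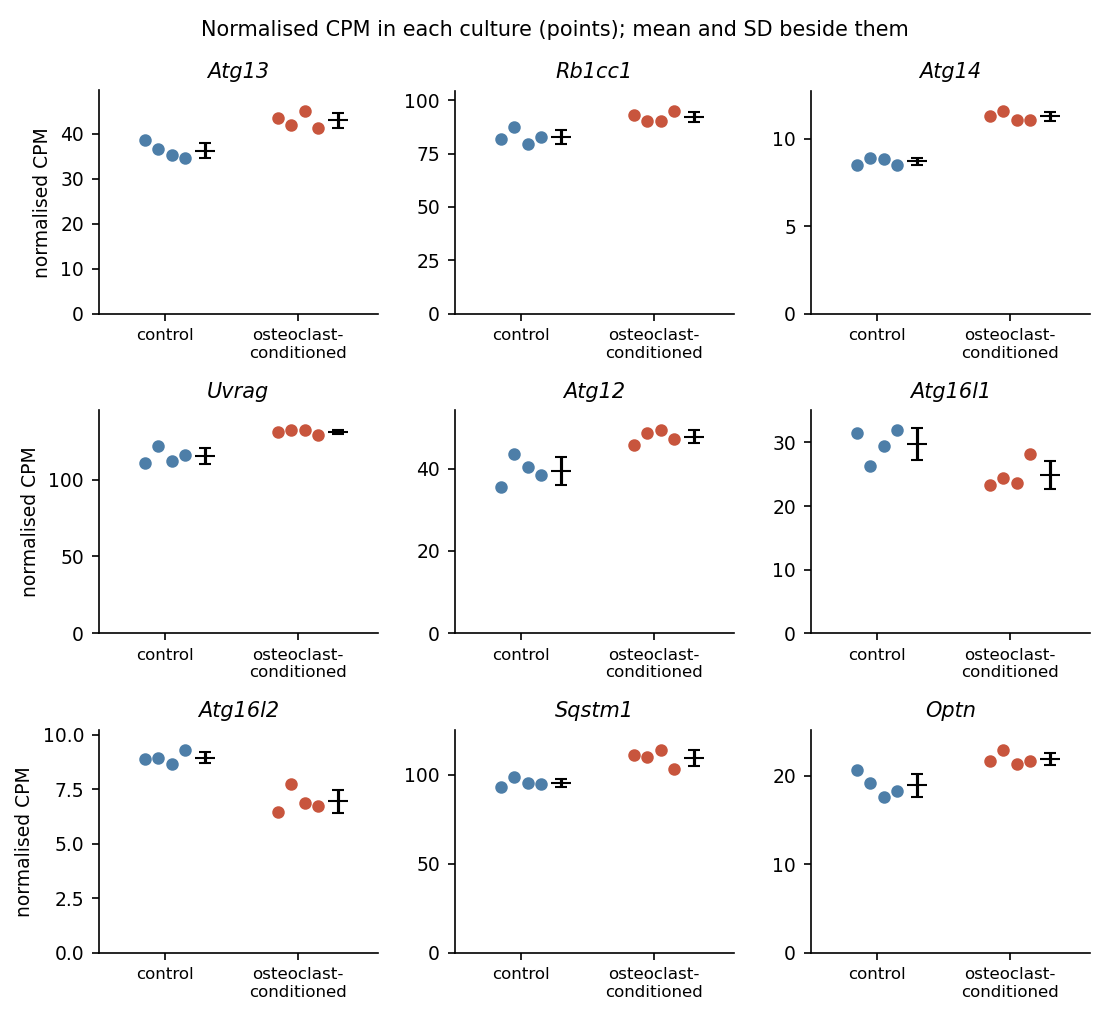
Normalised CPM (y axis, from 0) of 9 autophagy genes in each of the 4 control (blue) and 4 osteoclast-conditioned (red) cultures; the black mark and bar beside each group are the mean and SD. Of the 9, Atg16l1 alone overlaps between the media, and Atg14 shows the widest relative gap among the genes that rose.

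For membrane supply, 1 of 6 tested genes rose and 1 fell (16.7% each, near the 15.7% and 14.8% of all tested genes), with a median log2 fold change of 0.01. WIPI proteins read the lipid made by VPS34, and WIPI2 brings the conjugation machinery to it. Wipi2 rose 1.08-fold, from 166 to 171 CPM in control cultures to 180 to 185 CPM in osteoclast-conditioned cultures (log2 fold change 0.11, SE 0.03, edgeR adjusted p = 0.00257). Wipi1 was near the detection limit, at 12 to 29 counts per sample, with 1.54, 1.34, 1.23 and 1.64 CPM in control medium and 0.967, 0.719, 1.07 and 1.05 CPM in osteoclast-conditioned medium. It fell without overlap (log2 fold change -0.58, SE 0.22, edgeR adjusted p = 0.0461), but the call was lost in 8 of the 13 alternative fits that tested it (adjusted p from 0.0378 to 0.164). These were DESeq2, no filter on low counts, and the fits without control replicate 1 or 4 or without any 1 of the osteoclast-conditioned replicates. Atg9a, the transmembrane lipid scramblase, was at 52.4 ± 2.03 and 48.6 ± 2.96 CPM (SD, n = 4; edgeR adjusted p = 0.067). Other transcripts, mainly Gm29253, carry 42.6% of the 50-base stretches of its longest transcript, so its counts are uncertain. The lipid-transfer genes Atg2a and Atg2b and the WIPI relative Wdr45b lay between 0.00 and 0.04.

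Of 11 conjugation genes tested, Atg12 and Atg7 rose and Atg16l1 and Atg16l2 fell (18.2% each, near the 15.7% and 14.8% of all tested genes), and the median was -0.01. ATG12 is the ubiquitin-like protein that ATG7 activates and ATG10 joins to ATG5, and ATG16L1 holds the product at the membrane. Atg12 (ENSMUSG00000032905) was at 35.6, 43.5, 40.3 and 38.4 CPM in control medium and 45.7, 48.6, 49.3 and 47.3 CPM in osteoclast-conditioned medium. Every osteoclast-conditioned value exceeded every control value, a 1.21-fold rise (log2 fold change 0.27, SE 0.05, edgeR adjusted p = 0.000131).

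Atg16l1 (ENSMUSG00000026289; chromosome 1, 87755870 to 87792428), whose product forms a complex with the ATG12-ATG5 conjugate, went the other way. It was at 31.4, 26.3, 29.5 and 31.9 CPM in control medium and 23.3, 24.4, 23.6 and 28.2 CPM in osteoclast-conditioned medium. Control replicate 2 and osteoclast-conditioned replicate 4 overlapped, and the level fell to 0.837 of control (log2 fold change -0.26, SE 0.07, edgeR adjusted p = 0.00473). Its relative Atg16l2 (ENSMUSG00000047767; chromosome 7, 101263034 to 101302251, minus strand) fell as well.

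Atg16l2 was at 8.88, 8.95, 8.67 and 9.31 CPM in control medium and 6.46, 7.72, 6.87 and 6.71 CPM in osteoclast-conditioned medium. The groups did not overlap, and the level fell to 0.773 of control (log2 fold change -0.37, SE 0.09, edgeR adjusted p = 0.00182). Of its span 54.5%, but only 3.45% of its exon bases, lies inside Fchsd2 on the opposite strand. Atg7, the E1-like enzyme of both conjugation systems, rose 1.1-fold, from 36.7 ± 2.47 to 40.1 ± 1.95 CPM (SD, n = 4; edgeR adjusted p = 0.0421), with overlap. The Atg7 call was lost in 7 of 14 alternative fits (adjusted p from 0.0215 to 0.173): DESeq2, scaling by total counts, and without control replicate 2 or 4 or osteoclast-conditioned replicate 1, 2 or 3. The E2-like enzymes Atg3 and Atg10, Atg5 and the 4 Atg4 proteases had log2 fold changes from -0.04 to 0.11 and did not pass the test. For Atg4a, 63.6% of the 50-base stretches of the longest transcript also occur in other genes, mainly Atg4a-ps, and for Atg4d 59.4% of exon bases lie inside the span of Kri1, so both counts are uncertain.

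None of the 4 Atg8-family genes passed the edgeR test, and 1 had an unadjusted p under 0.05. That gene was Gabarap, at 84.1, 83.7, 83.8 and 82.2 CPM in control medium and 90.8, 86.7, 87.1 and 88.1 CPM in osteoclast-conditioned medium. Its values did not overlap, yet the difference of 1.06-fold missed the threshold (edgeR adjusted p = 0.0661). Gabarapl1 was at 53.2, 54.7, 54.8 and 53.3 CPM and at 56.0, 53.9, 53.3 and 49.0 CPM in the same order. Gabarapl1 overlapped between the media, and so did the remaining pair. Gabarapl2 was at 11.8, 11.1, 9.39 and 9.71 CPM and at 11.5, 10.4, 10 and 10.9 CPM. Map1lc3a, which encodes LC3A, was at 2.13, 1.80, 1.88 and 2.03 CPM and at 1.93, 2.16, 1.88 and 2.63 CPM. Map1lc3a rested on 29 to 45 counts per sample, and its log2 fold change of 0.13 had an SE of 0.17. Other genes' transcripts carry 18.6% of the 50-base stretches of the longest Gabarapl1 transcript and 17.0% of those of Gabarapl2, so both counts are uncertain. DESeq2 called 0 of the 4 genes.

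The cargo receptors had the highest median of the 6 groups, 0.18, with all 5 above 0 and 4 rising (80.0%, against 15.7% of all tested genes); of the 4, the calls of Nbr1 and Tax1bp1 depended on the fit, as given below. Sqstm1 (p62; ENSMUSG00000015837; chromosome 11, 50199366 to 50210827, minus strand) bridges ubiquitin-tagged cargo and ATG8 proteins and is itself consumed by autophagy. It was at 93.2, 98.5, 95.6 and 94.6 CPM in control medium and 111, 110, 114 and 103 CPM in osteoclast-conditioned medium. The groups did not overlap, and the rise was 1.15-fold (log2 fold change 0.20, SE 0.03, edgeR adjusted p = 3.6e-05). Of its exon bases 22.3% lie inside the span of Mrnip on the opposite strand.

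Optn (optineurin; ENSMUSG00000026672; chromosome 2, 5020642 to 5064051) serves in the removal of mitochondria and bacteria. Its values were 20.6, 19.1, 17.6 and 18.2 CPM in control medium and 21.6, 22.9, 21.3 and 21.6 CPM in osteoclast-conditioned medium. It rose 1.15-fold without overlap (log2 fold change 0.21, SE 0.06, edgeR adjusted p = 0.00989). Nbr1, a receptor that acts with p62, rose 1.07-fold from 82.2 ± 3.31 to 88.1 ± 2.27 CPM (edgeR adjusted p = 0.0319), and Tax1bp1, a further ubiquitin-binding receptor, rose 1.05-fold from 280 ± 7.29 to 295 ± 6.45 CPM (edgeR adjusted p = 0.0344; SD, n = 4). The Nbr1 call was lost in 6 of 14 alternative fits (adjusted p from 0.014 to 0.117): DESeq2, scaling by total counts, and without control replicate 1 or 4 or osteoclast-conditioned replicate 1 or 4. The Tax1bp1 call was lost in 5 of 14 (adjusted p from 0.0124 to 0.108): scaling by total counts, and without control replicate 1 or 4 or osteoclast-conditioned replicate 1 or 2. Calcoco1, a receptor for endoplasmic reticulum and Golgi membranes, was at 12.1 ± 0.768 and 13.8 ± 1.58 CPM (SD, n = 4; edgeR adjusted p = 0.0856).

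Levels were compared between genes as normalised CPM per kb of exon, averaged over all 8 cultures. With the union of a gene's exons as length, Gabarap was the highest at 46.5, followed by Sqstm1 at 30.6, Tax1bp1 at 28.8, Gabarapl1 at 26.6 and Atg3 at 21.4. On that length Gabarap exceeded Sqstm1 by more than the SD in both media (45.3 ± 0.472 against 28.4 ± 0.678 in control, 47.8 ± 1.00 against 32.7 ± 1.35 in osteoclast-conditioned medium; SD, n = 4). The order depended on the length used: per kb of the longest transcript Tax1bp1 was the highest at 67.7, ahead of Gabarap at 63.5, Sqstm1 at 38.4 and Wipi2 at 34.0, and 8 of the 10 highest members remained among the 10 highest. At the low end, with either length, were Map1lc3a at 1.74, Atg16l2 at 0.938, Wipi1 at 0.271 and Wdr45 at 0.0686 (values per kb of the union of exons). Within the Atg8 family the levels thus ran from near the top of the order (Gabarap) to near its bottom (Map1lc3a).

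How the table treats overlapping genes bears on these levels. Of 923 listed genes whose whole span lies inside other listed genes, 913 (98.9%) were at 0 in all samples, as were 501 of the 502 that share no exon base with the enclosing genes. Among the 17163 genes without overlap, 31.1% were at 0. Counting exon length only outside other genes' spans moved Becn1 from 3.66, the 29th level in the order, to 25.0, the 5th. Atg4d moved from 2.09 to 5.16, Sqstm1 from 30.6 to 39.5 and Wdr45, with 83.2% of its exon bases inside Gm45208, from 0.0686 to 0.409. These 4 members have over 10% of their exon bases inside another gene, and their place in the order is uncertain.

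**Figure D3:**
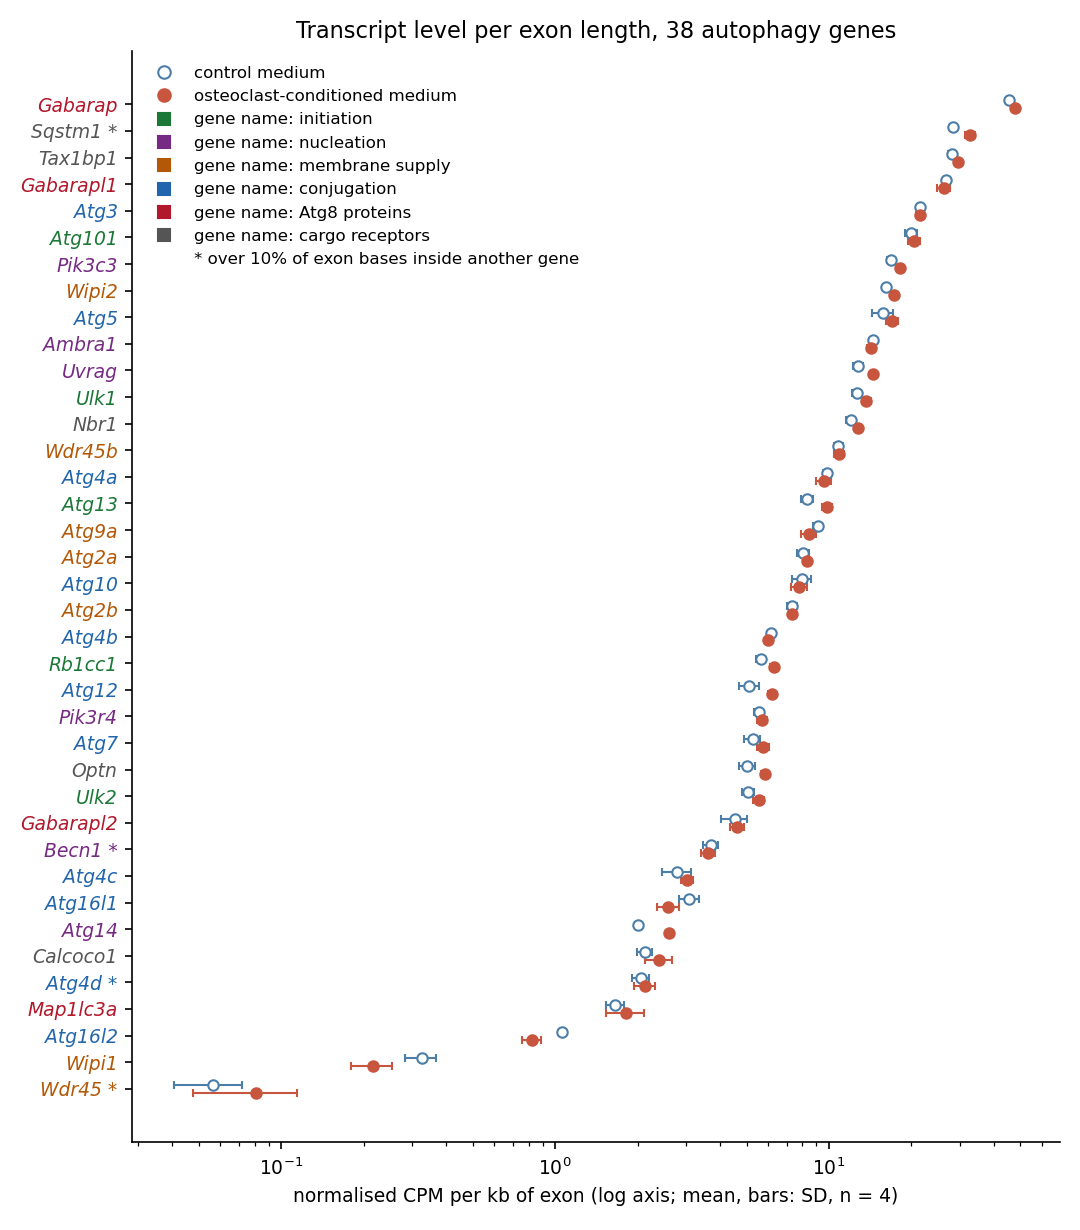
Normalised CPM per kb of exon (x axis, log scale) of the 38 autophagy genes, ordered by level, as mean and SD of 4 control (open blue) and 4 osteoclast-conditioned (filled red) cultures; gene names are coloured by step. On this length, the union of exons, Gabarap stands highest at 46.5 and Wdr45 lowest at 0.0686 over all cultures (per longest transcript Tax1bp1 is above Gabarap), and asterisks mark 4 genes with over 10% of exon bases inside another gene.

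Ratios of related genes within a culture do not depend on library scaling, and 8 such pairs were compared. The log2 ratio of Wipi1 to Wipi2, per kb of exon, was -5.50, -5.71, -5.78 and -5.42 in control cultures and -6.29, -6.65, -6.12 and -6.14 in osteoclast-conditioned cultures. That of Gabarap to Gabarapl1 was 0.79, 0.74, 0.74 and 0.75 in control cultures and 0.82, 0.81, 0.83 and 0.97 in osteoclast-conditioned cultures. Neither pair overlapped between the media. Both differences, -0.70 and 0.11, had the smallest p that 4 against 4 samples allow (two-sided exact permutation test, p = 0.0286), and neither passed after adjustment over the 8 pairs (0.114). With 70 assignments and 8 pairs, no pair could pass unless 5 reached the smallest p, so the adjusted values say little about either pair. Without osteoclast-conditioned replicate 4 the Gabarap to Gabarapl1 difference was 0.07, and Gabarapl1 shares sequence with another gene, as given above.

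Atg16l1 and Atg16l2, which both fell, had a log2 ratio of 1.54 ± 0.12 in control and 1.65 ± 0.17 in osteoclast-conditioned medium (SD, n = 4; exact permutation p = 0.343, adjusted 0.594). Ulk1 to Ulk2 was 1.31 ± 0.11 and 1.30 ± 0.10, and Atg2a to Atg2b was 0.13 ± 0.10 and 0.17 ± 0.04. The remaining pairs (Wdr45 to Wdr45b, Atg4b to Atg4d and Gabarap to Gabarapl2) overlapped between the media, with exact permutation p from 0.229 to 0.571.

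**Figure D4:**
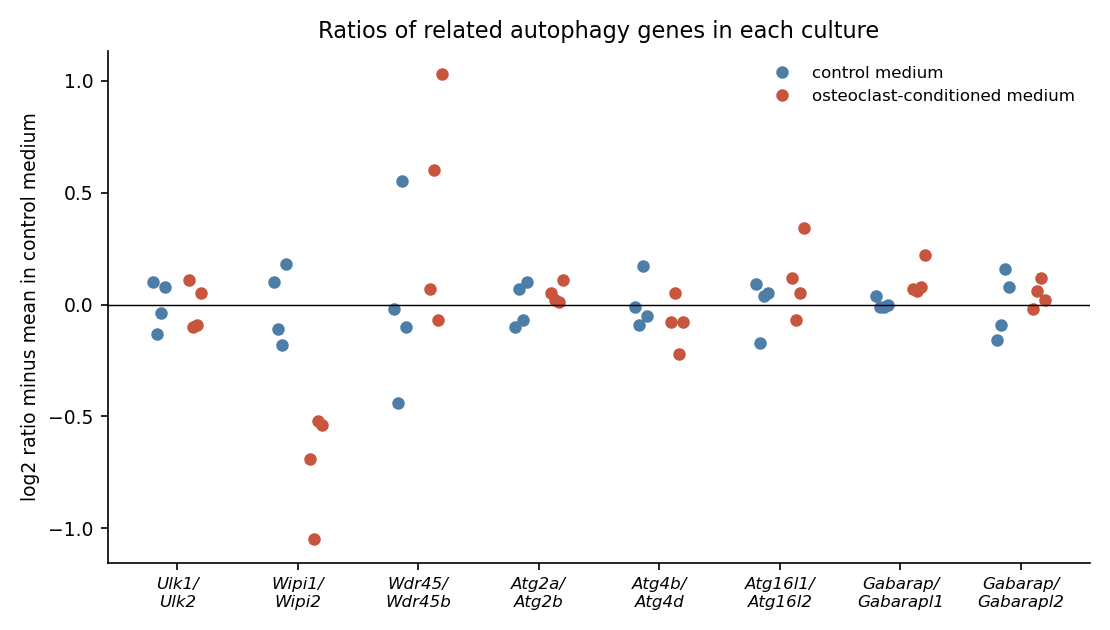
Log2 ratio of 8 pairs of related autophagy genes in each culture (points), minus the mean of the 4 control cultures (y axis, log2 units); blue, control medium, red, osteoclast-conditioned medium. Wipi1/Wipi2 (difference -0.70) and Gabarap/Gabarapl1 (0.11) do not overlap between the media, and Wdr45/Wdr45b spreads widely in both media, with Wdr45 at 3 to 7 counts per sample.

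Around the core machinery, 63 further genes of the pathway were listed, of which 57 were tested: 15 rose and 4 fell. The 33.3% called is near the 30.5% of all tested genes, and the median was 0.04 against -0.01. The counts by list that follow are small, and are to be read against the 15.7% of all tested genes that rose and the 14.8% that fell. Of 12 upstream kinase genes 4 rose (33.3%, against 15.7% of all tested genes) and none fell, including Prkaa2 and Prkab1, subunits of the energy sensor AMPK (log2 fold changes 0.21 and 0.15), and Mtor, the nutrient-sensing kinase that restrains ULK1 (0.13). Of 5 tested transcription factors 2 rose. Foxo1, a factor with autophagy genes among its reported targets, rose 1.32-fold from 150 ± 1.74 to 198 ± 4.12 CPM (SD, n = 4; edgeR adjusted p = 3.3e-12), and Foxo3 rose 1.13-fold (log2 fold change 0.18). Tfeb, the best-known regulator of lysosomal and autophagy genes, was at 55.1 and 57.9 CPM in the 2 media and did not pass the test.

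Of 11 other factors of phagophore growth, 4 rose and 1 fell. Trp53inp1, whose product binds ATG8 proteins, rose 1.39-fold from 35.0 ± 1.70 to 48.9 ± 2.68 CPM (SD, n = 4; edgeR adjusted p = 5.3e-09), Epg5 rose by 0.22 on the log2 scale, and Tmem41b, a lipid scramblase of the endoplasmic reticulum, fell by 0.23. Of 12 genes of fusion with the lysosome, 3 rose and 1 fell, led by Vps16 at -0.17, Plekhm1 at 0.14 and Vps41 at 0.12. Retreg3 (0.15) was the 1 of 7 tested receptors for endoplasmic reticulum turnover that rose.

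Of the genes for mitochondrial turnover, 0 of 7 tested rose and 2 fell (28.6%, where 14.8% of all tested genes fell). In either direction 28.6% were called, no higher than the 30.5% over all genes. Both genes that fell encode receptors in the outer mitochondrial membrane that bind ATG8 proteins directly. Bnip3 fell from 112 ± 10.7 to 76.6 ± 3.01 CPM (log2 fold change -0.55, SE 0.06, edgeR adjusted p = 3.7e-05) and Bnip3l from 119 ± 9.13 to 95.5 ± 1.62 CPM (log2 fold change -0.32, SE 0.04, edgeR adjusted p = 2.9e-06; SD, n = 4). Neither overlapped between the media. Of 3 other cargo receptors tested, Wdfy3 rose (0.19).

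Promoter sequences from RefSeq (GRCm38.p6; 250 bases before to 50 after the annotated start) were available for 31 of the 38 members, and were searched on both strands for the E-box CACGTG, the core of the element bound by TFEB and its relatives, and for TGATGNAA, a C/EBP-ATF response element. The E-box was found in 4 members, Atg14, Atg3, Atg5 and Atg7 (12.9% of the 31; 8.09% of all 27025 genes with a window). For 6 of the 31 members, Atg14, Atg7, Wipi1, Wipi2, Wdr45 and Atg4b, the window lies inside the gene as GENCODE annotates it, so it does not cover the outermost annotated start. TGATGNAA was found in 0 of 31 and in 4.51% of all genes. The promoters of Atg14, which had the largest rise and an E-box across its start, of Atg3, which had a pair of E-boxes and a log2 fold change of -0.01, and of Sqstm1 and Atg16l2, with neither motif and opposite changes, are given 5′ to 3′ on the gene's strand up to 20 bases past the start. Capitals mark the E-box.
Atg14, chr14:47568415-47568684, minus strand: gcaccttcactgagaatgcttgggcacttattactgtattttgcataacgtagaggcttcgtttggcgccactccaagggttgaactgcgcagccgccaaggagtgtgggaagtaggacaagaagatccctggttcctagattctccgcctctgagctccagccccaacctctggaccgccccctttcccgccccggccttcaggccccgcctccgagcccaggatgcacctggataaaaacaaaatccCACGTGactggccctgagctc
Atg3, chr16:45158579-45158848, plus strand: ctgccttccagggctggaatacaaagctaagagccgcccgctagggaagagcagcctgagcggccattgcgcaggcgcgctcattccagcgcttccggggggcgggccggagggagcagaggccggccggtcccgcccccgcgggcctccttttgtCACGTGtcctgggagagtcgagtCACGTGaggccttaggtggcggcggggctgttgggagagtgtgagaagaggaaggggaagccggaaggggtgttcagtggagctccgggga
Sqstm1, chr11:50210801-50211070, minus strand: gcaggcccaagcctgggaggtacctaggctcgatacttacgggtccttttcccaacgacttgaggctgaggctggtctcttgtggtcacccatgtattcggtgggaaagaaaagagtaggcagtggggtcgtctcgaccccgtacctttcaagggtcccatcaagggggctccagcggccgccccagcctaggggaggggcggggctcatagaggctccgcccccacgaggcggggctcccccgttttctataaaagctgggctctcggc
Atg16l2, chr7:101302069-101302338, minus strand: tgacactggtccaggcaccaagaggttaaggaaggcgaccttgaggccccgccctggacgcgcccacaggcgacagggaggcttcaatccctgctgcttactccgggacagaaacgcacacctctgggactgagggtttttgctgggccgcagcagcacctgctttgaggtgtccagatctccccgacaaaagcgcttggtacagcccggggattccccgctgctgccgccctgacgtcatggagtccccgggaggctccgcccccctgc
Of the 4 members with an E-box, Atg14 and Atg7 rose, and Atg3 and Atg5 did not pass the test. A match in these windows is a description of the letters only, since start sites in these cells and factor binding were not measured.

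Both directions were also found among reported targets of these factors. Of 11 tested genes reported as ATF4 or CHOP targets, Atg12, Sqstm1, Nbr1 and Atg7 rose (36.4%, against 15.7% of all tested genes) and Atg16l1 fell (9.09%, against 14.8%), with a median of 0.08. Of 6 tested genes reported as TFEB targets, Sqstm1, Uvrag and Vps11 rose (50%, against 15.7%) and Wipi1 fell (16.7%, against 14.8%), with a median of 0.05. Both lists share genes with the 38 members, so their counts are not separate evidence. The calls of Nbr1, Atg7 and Wipi1 depended on the fit, as given above.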

How the data were processed

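RNA was extracted with RNeasy Plus Mini and made into libraries with SureSelect HS2, per the labels' protocols. The authors deposited unnormalized counts, in whole numbers, for each gene ID in all 8 samples. The submitters' processing notes name STAR 2.7.5a, featureCounts 2.0.1 and mm10. The annotation, counted feature, strand setting and use of molecular barcodes are not given in the sources used here. Of 21859 IDs, 21817 matched GENCODE M21.

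The test was that of edgeR 4.0.16 under R 4.3.3 (filterByExpr, TMM, robust quasi-likelihood fit on medium, threshold 0.05), after a check on simulated data. SE is the absolute log2 fold change over the square root of F. Ratios had 0.5 added to each count and were compared by two-sided exact permutation over 70 assignments. DESeq2 1.42.0 was an alternative, with other scalings, filters and thresholds, the replicate block, and each sample left out. Overlaps with other genes and exon length outside them were examined after seeing the data.

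The 38 members and all lists were chosen with earlier results of these data known. Values in every sample are given for called members with an absolute log2 fold change of at least 0.15 whose mean reaches 5 CPM, for the Atg8 family, for the ratios that did not overlap between media, and for Wipi1, a low-count gene in 1 of those ratios; of each further list, up to 3 called genes with the largest change whose mean reaches 5 CPM are named. The replicate numbers are shared between media. Samples were correlated between media on their deviations, gene by gene, from the mean of their own medium, and not on their levels. For same-numbered samples these correlations ran from -0.0507 to 0.143 (mean 0.0372), against a mean of -0.0127 for samples with different numbers. Same-numbered samples are not treated as pairs. The labels name no batch. The result of 1 marker gene is not reported here.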

Additional observations from a re-analysis of the deposited data

Results flagged for a closer look

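Among 92 groups of 4 samples (each member and each ratio in each medium), 4 held a sample whose gap to its nearest neighbour as a share of the range exceeded Dixon's 95% critical value, where chance gives about 4.6. Osteoclast-conditioned replicate 4 was the outlying sample in 3 of them. Pik3r4 in that sample was at 51.8 CPM against 55.6 to 56.3 in the other osteoclast-conditioned samples (gap over range 0.837). Calcoco1 was at 16.1 CPM against 12.6 to 13.2 (0.84). The log2 ratio of Gabarap to Gabarapl1 was 0.97 against 0.81 to 0.83 (0.863), and without that sample the difference between media was 0.07 in place of 0.11. In control medium, Atg2b in replicate 1 was at 105 CPM against 95.9 to 97.0 (0.888).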

How the results depend on the processing

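Of the 16 called members, 11 (Ulk1, Atg13, Rb1cc1, Atg14, Uvrag, Wipi2, Atg12, Atg16l1, Atg16l2, Sqstm1 and Optn) were called in every alternative fit, 5 lost the call in at least 1, and 0 changed sign. Members called higher numbered 8 at an adjusted p under 0.01, 10 with DESeq2, 9 with scaling by total counts and 9 to 14 when 1 sample was left out, against 13; those called lower numbered 2 to 4. Over all genes, those lower fell to 948 at an adjusted p under 0.01, and scaling by total counts gave 1383 higher and 2012 lower against 1689 and 1584. With the replicate block, 14 members were higher and 3 lower; it added Ulk2 and removed no member's call. Ulk2 was also called without control replicate 2 or osteoclast-conditioned replicate 1, Atg9a (lower) with total counts and without control replicate 3 or osteoclast-conditioned replicate 4, and Atg5 without control replicate 2. Of the uncalled members, 9 changed sign. With total counts Wdr45b was at -0.012 and Atg2b at -0.020. With 1 sample left out, the log2 fold change ran from -0.069 to 0.016 for Becn1, -0.011 to 0.041 for Wdr45b, -0.010 to 0.037 for Atg2b, -0.018 to 0.014 for Atg3, -0.073 to 0.003 for Atg4a, -0.005 to 0.097 for Atg4d, -0.088 to 0.014 for Atg10, -0.051 to 0.012 for Gabarapl1 and -0.017 to 0.084 for Gabarapl2; the cause was not tested. Ratios with 1 sample left out were computed as values and were not tested. With exon length outside other genes, 9 of the 10 highest members kept their place among them. Low counts limit Wdr45 and Wipi1 most, and 83.2% of the exon bases of Wdr45 lie inside Gm45208.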
